A study of Mus musculus with 9 samples.

Results

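The nuclear transcriptome of unstressed control cardiomyocytes at postnatal day (P) 12 was described from 3 of the 9 libraries of the series, those of the control mice (C1, C2 and C3). The libraries were taken by their label, and no library of another group entered the values below, other than through the authors' scaling, which may have been set over the whole table. Genes were ranked by the mean normalized count, which is the number of reads of a gene divided by the size factor of its library. The control mice were of the FVB strain, were labelled wildtype and were 12 days old, and the study's methods give their genotype as Fstl1 WT/fl, with 1 floxed allele and no Cre. Each heart gave 1 library of PCM-1-positive left ventricular nuclei, made from snap-frozen tissue. The remaining 6 libraries of the series came from mice that lacked Fstl1 in the endothelial and endocardial lineage. Wherever 3 values are given together, they are those of C1, C2 and C3 in that order, and each ± is the SD between the 3 libraries.

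PCM-1 (pericentriolar material 1) moves to the nuclear envelope when cardiomyocytes mature, so that an antibody against it separates their nuclei from those of other heart cells. RNA inside a nucleus holds primary transcripts, RNA that is being spliced and RNA that stays in the nucleus, whereas most ribosome-bound messenger RNA and nearly all mitochondrial RNA lie outside it. At about this age mouse ventricular myocytes leave the cell cycle, exchange fetal for adult forms of contractile proteins and turn to fatty acids as their main fuel.

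The libraries held 8262684, 12597012 and 10361294 reads assigned to genes, and 17756, 18310 and 17947 genes had at least 1 read. Of the 41128 genes in the table, 12747 had a mean normalized count of at least 10 over the 3 libraries, and 19404 were at 0 in all of them. The chi-square per degree of freedom between the counts of a pair of libraries was 16.5 to 23.6, so that no library repeated another. At this depth 1 read was worth 1.18, 0.897 and 0.95 normalized counts. Genes at or below a count of about 3 are therefore given only as values. The labels give each library a number of its own, and no source states whether C1 to C3 were litter mates.

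The libraries carried the markers of ventricular cardiomyocytes. All 16 genes of the ventricular identity list had a mean of at least 10, and together they took 29.1, 32.5 and 28.05% of the counts. Their median level was 2578, 3496 and 3494 counts per kilobase of exon. Pcm1 itself, the gene of the protein used for sorting, had 1125, 1226 and 1411 normalized counts, and Nkx2-5, a cardiac homeobox factor, was the identity gene with the lowest level per kilobase at 46.7 ± 2.42. Markers of other cells were low but not at 0. The median level of the 37 endothelial and fibroblast markers together was 14.4, 16.7 and 16.9 counts per kilobase, so that the ratio of the median levels was 179, 209 and 207. Other lists did not enter this ratio. Among them was that of smooth muscle and pericytes, which shares genes with cardiomyocytes and had a higher median of 49.9 counts per kilobase. Since these are bulk libraries, fewer nuclei of a type and less RNA in each nucleus cannot be told apart.

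Among the 20 endothelial and endocardial markers 18 had a mean of at least 10, and the list took 0.0176, 0.0197 and 0.0187% of the counts. Cdh5, the cadherin of endothelial junctions, had 193, 173 and 210.0 normalized counts, Pecam1 204, 191 and 169, and Vwf, the von Willebrand factor, 25.995, 26.02 and 16.2. All 17 fibroblast markers had a mean of at least 10 and took 0.0289, 0.0261 and 0.0311%. Col1a1, a chain of type I collagen, had 509, 414 and 354 normalized counts and Pdgfra, a receptor on fibroblasts, 115, 203 and 128. These counts are small beside those of the myocyte genes but were present in each library.

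Among the 14 leukocyte markers 4 reached a mean of 10, led by Cd68 with 138, 62.8 and 82.7 normalized counts, whereas Ptprc (CD45) had 59.1, 15.3 and 8.55. In the erythroid list 3 of 7 did so, and the globin gene Hbb-bs had 16.5, 0.897 and 31.4. Smooth muscle and pericyte markers took 0.139, 0.114 and 0.13%, of which most came from Acta2, Des and Abcc9, genes that cardiomyocytes also express. Next on this list were Notch3 with 946, 626 and 649 normalized counts, Pdgfrb with 343, 450 and 296 and Cspg4 with 829, 739 and 354. Per kilobase they stood at 91.6, 66.2 and 53.7. The highest levels of the endothelial and fibroblast lists were 45.7 for Cdh5 and 64.9 for Col1a1. Myh11, the myosin of smooth muscle, had 53.2, 77.2 and 17.1 normalized counts and Cnn1 (calponin) 12.998, 1.79 and 0.95. Of the 16 atrial and conduction markers 8 had a mean of at least 10. The highest per kilobase was Nppa, the gene of atrial natriuretic factor, with 8.27, 109 and 28.5 normalized counts. C1 had the highest count of the pacemaker channel gene Hcn4 (151, 10.8 and 33.3) and of the atrial regulator Nr2f2 (86.3, 14.4 and 10.5), and C2 had the highest count of Nppa. In the list of epicardial, valve and neural markers 5 of 13 reached 10.

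**Figure D1:**
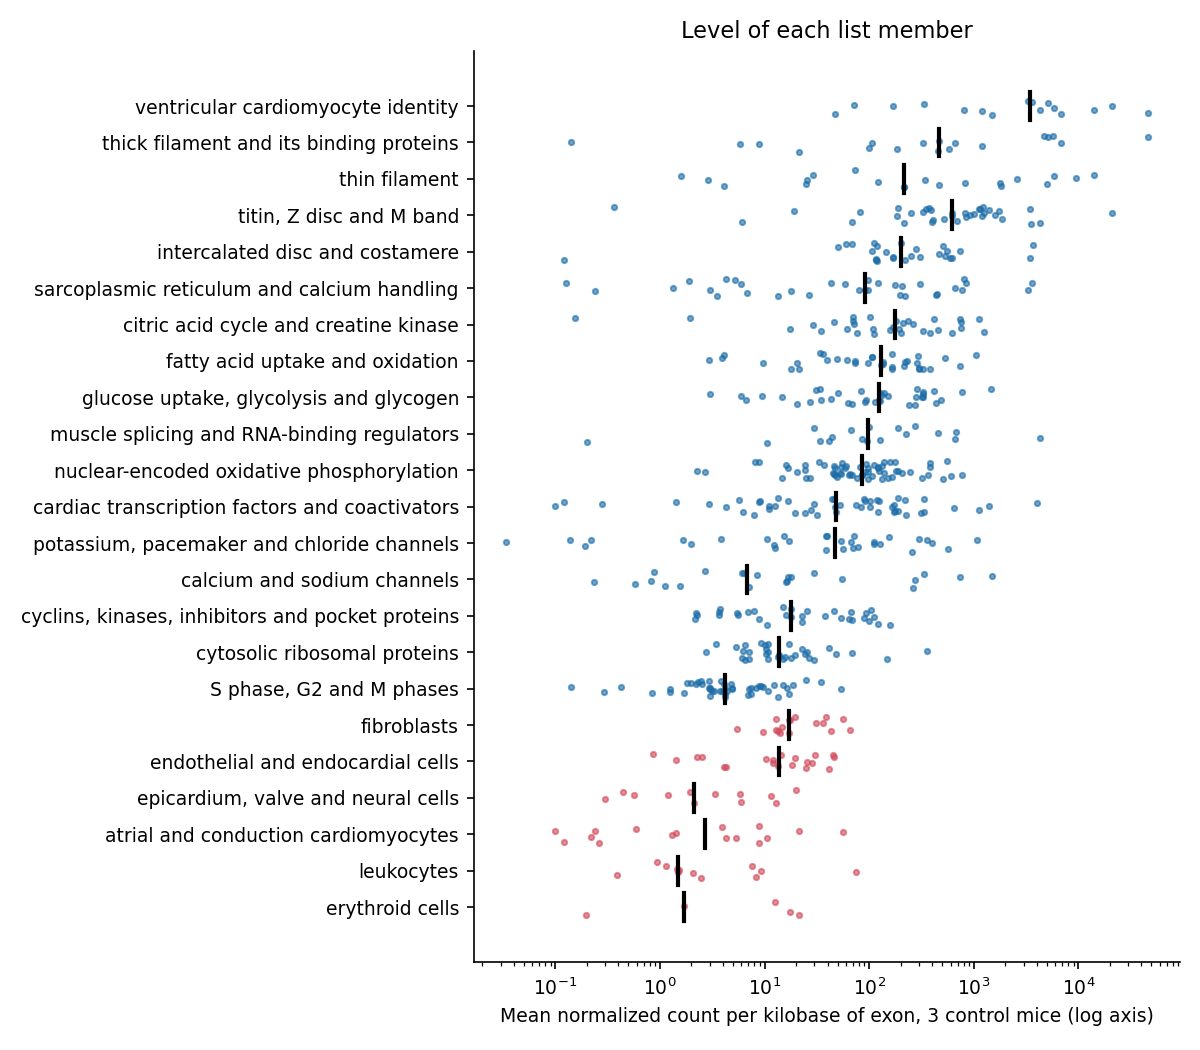
Mean normalized count per kilobase of exon over the 3 control mice (log axis) for each member of 23 gene lists, 1 point per gene. Blue points belong to cardiomyocyte, metabolic and cell cycle lists and red points to markers of other cells, members at 0 are not drawn, and the black bars are the medians over all members of a list. The list of smooth muscle cells and pericytes is not drawn. The bar of the ventricular identity list lies at 3461, and those of the fibroblast and endothelial lists lie at 17.2 and 13.9.

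Nuclear RNA was concentrated in few genes. The 10 most abundant genes took 43.6, 45.1 and 42.6% of the counts (43.8 ± 1.25%, n = 3), and the 100 most abundant took 58.6, 60.7 and 58.3%. In the 3 libraries 30, 23 and 34 genes held 50% of the counts, 633, 503 and 618 genes held 75% and 2646, 2259 and 2569 genes held 90%. C2 was the most concentrated library by each of these measures. It also had the most reads and the most genes with a read, but the fewest genes that reached 10 normalized counts (12530, 12117 and 12416). Whether depth set the number of genes with a read was not tested.

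**Figure D2:**
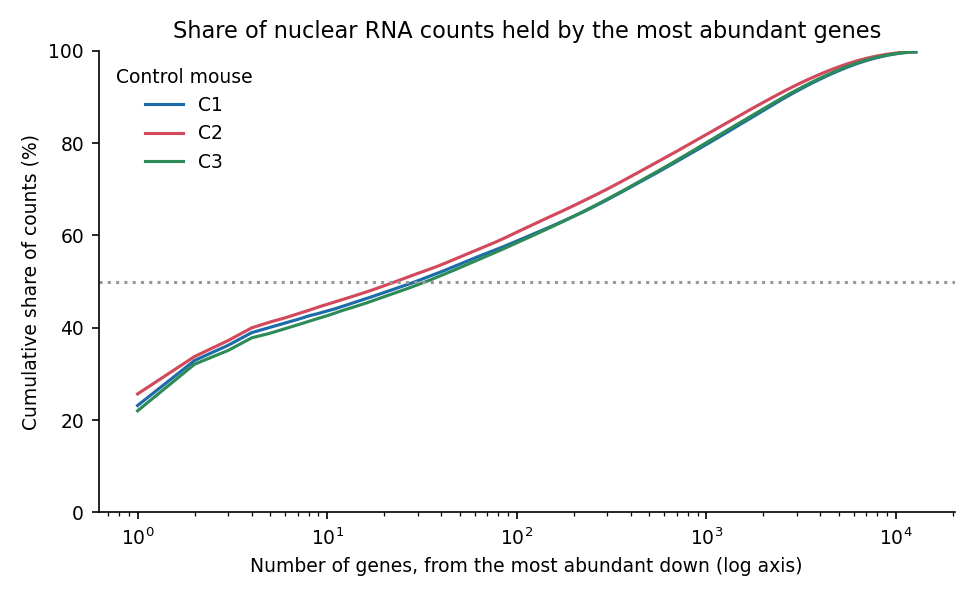
Cumulative share of normalized counts (%) against the number of genes taken from the most abundant down (log axis), 1 line per control mouse, with a dotted line at 50%. The lines of C1 and C3 run together and that of C2 lies above them, crossing the dotted line at 23 genes against 30 in C1 and 34 in C3.

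Ttn (ENSMUSG00000051747.9, chromosome 2 from 76703980 to 76982547 in mm10) was the most abundant gene. It encodes titin, the elastic protein that spans the sarcomere from Z disc to M band. Its normalized count was 2260985, 2900078 and 2167465, or 23.2, 25.7 and 22.01% of all counts. Malat1, a long noncoding RNA that stays in nuclear speckles, followed with 953081, 917655 and 995105 (9.76, 8.12 and 10.1%). The ranges of these genes did not overlap, and C2 had the highest count of Ttn and the lowest count of Malat1.

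Myh6, the α-myosin heavy chain of adult mouse ventricle, had 269206, 388117 and 269889 normalized counts. Gm42418 had 319028, 312466 and 291107 and thus overlapped Myh6 in rank between libraries. GENCODE lists Gm42418 as a long noncoding gene on chromosome 17, whereas RefSeq lists the same name as a synonym of Rn18s-rs5, a pseudogene related to 18S ribosomal RNA. Reads of ribosomal RNA could therefore be counted under this name, and its level is uncertain as that of a gene. The next ranks were taken by Tnnt2 (cardiac troponin T, 90008, 142499 and 98406), Ryr2 (the calcium release channel, 112563, 102851 and 97518) and Dmd (dystrophin, 77899, 86029 and 81999.6).

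Ranks 8 to 20 included Pde4dip (myomegalin, an anchoring protein), Sptbn1 (β-spectrin), Dst and Macf1 (linkers between actin and microtubules), both mitochondrial ribosomal RNAs, Myh7, Mir6236, Tacc2 (a centrosomal coiled-coil protein), Myom1 (myomesin of the M band), Cacna1c (the L-type calcium channel) and Neat1 (the RNA of paraspeckles). Their means ran from 81961 for Pde4dip to 31666 for Neat1, and neighbours in this order overlapped between libraries. Mir6236, annotated as a miRNA gene of 123 bases, had 46102, 36565 and 37549 normalized counts. Among the 20 genes the SD was 4.06% of the mean for Malat1 and 25.7% for Sptbn1, whose counts were 47956, 80886 and 63759. C2 was the highest library for 12 of the 20 genes, C1 for 6 and C3 for 2. The normalized counts of all genes summed to 9763188, 11301795 and 9846918, so that C2 also had the largest sum. Over 9916 less abundant genes, with means of 10.2 to 352, 35.9% were highest in C1, 32.4% in C2 and 31.7% in C3. The difference was not tested.

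**Figure D3:**
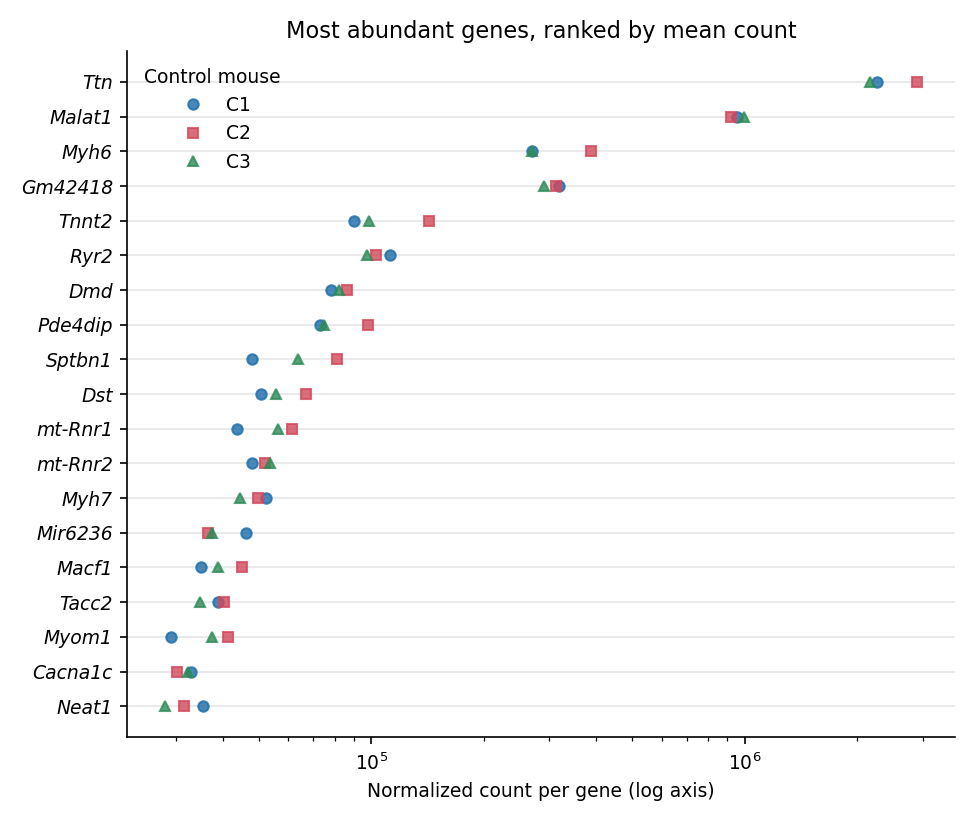
Normalized counts (log axis) of 19 of the 20 genes with the largest mean, with 1 symbol per control mouse (circle C1, square C2, triangle C3). Ttn lies between 2167465 and 2900078 and Neat1 between 28039 and 35362, and the symbols of neighbouring genes overlap from rank 3 on in several places.

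Divided by the length of its exons, the order changed. Gm42418 had 167959.6 ± 7973 counts per kilobase and Malat1 136801 ± 5552 (SD, n = 3), followed by mt-Rnr1 with 56370.1 ± 9508 and Myh6 with 45952 ± 10178. mt-Rnr2 had 32304 ± 1743 counts per kilobase, Ttn 20910.3 ± 3413 and Tnnt2 14229 ± 3637, so that Ttn, whose union of exons is 116825 bases long, held the sixth place. Sarcomere genes took most of the next places: Actc1 (cardiac α-actin, 9440.1), Mybpc3 (myosin-binding protein C, 6755), Tnni3 (cardiac troponin I, 5821), Myh7 (5676), Myl2 (ventricular regulatory light chain, 5155), Tnnc1 (cardiac troponin C, 5011) and Myh7b (4660.1) in counts per kilobase.

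Other genes among the 20 with the largest level per kilobase were Coro6 (a coronin, which binds actin, 5105), Pde4dip (4862) and Vegfa, a growth factor for endothelial cells, with 4751 counts per kilobase and 22512, 22159 and 16404 normalized counts. Gm10800, a predicted coding gene on chromosome 2, had 3225, 10129 and 2079 normalized counts and stood out by its spread, with C2 far above both other libraries. LOC102639045, annotated as antisense on chromosome 16, had 3360.5, 2894 and 5147, and D830015G02Rik, the antisense RNA Mhrt, had 6379, 5132 and 4984 normalized counts. No source states whether reads were counted by strand, so that reads of antisense genes and of the genes opposite them cannot be told apart.

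By annotated class, protein-coding genes took 83.5, 86.1 and 83.1% of the counts, long noncoding genes 14.5, 12.0 and 14.8%, and genes of the mitochondrial chromosome 0.946, 1.01 and 1.12%. Small and structural RNA genes took 0.707, 0.48 and 0.644%, pseudogenes 0.297, 0.241 and 0.285%. Noncoding genes outside the mitochondrial chromosome together took 15.2, 12.5 and 15.4%, of which Malat1 and Gm42418 made up the larger part. The number of genes with a mean of at least 10 was 11197 for protein-coding genes outside the mitochondrial chromosome, 877 for long noncoding genes, 463 for pseudogenes and 105 for small and structural RNA genes. The lower noncoding share of C2 stood beside its higher share of Ttn.

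Genes of the sarcomere took 31.1, 34.7 and 30.4% of all counts (32.1 ± 2.34%, n = 3), and 68 of the 76 genes on the 3 sarcomere lists had a mean of at least 10. The larger part was Ttn. The thick filament list took 4.13, 4.86 and 4.05%, the thin filament list 1.62, 1.87 and 1.63% and the list of titin, Z disc and M band 25.4, 28.02 and 24.7%. In the thick filament, Myl3, the ventricular essential light chain, had 2367, 2360.5 and 2633 normalized counts and 1200.4 ± 76.2 counts per kilobase, below the 5155 ± 1246 counts per kilobase of Myl2. Mylk3, the kinase of the cardiac light chain, had 2256, 3062 and 3238 normalized counts. The skeletal form of myosin-binding protein C, Mybpc2, had 305, 345 and 494, and Mybpc1 had 0, 0 and 1.90.

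In the thin filament, Tpm1 (α-tropomyosin) had 18824, 16189 and 14890.2 normalized counts and 2565 ± 309 counts per kilobase. Lmod2, which sets the length of thin filaments, had 3459, 3796 and 3441 normalized counts, and Acta2, the smooth muscle actin that developing myocytes also express, 4738, 3477 and 3602. The fast skeletal troponin genes were near the detection limit. Tnni2 had 0, 8.07 and 10.5 normalized counts, Tnnt3 0, 9.87 and 3.80 and Tnnc2 0, 0 and 0.

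In the Z disc, Actn2 (α-actinin 2) had 8649, 18704 and 21251 normalized counts, Ldb3 (Cypher) 21769.8, 21293 and 20888 and Palld (palladin) 16925, 19324 and 21502. Actn2 was low in C1, whereas Ldb3 was nearly equal in all libraries. Nexn (nexilin) had 5312, 8805 and 5979.6, Mypn (myopalladin) 5402, 12682 and 9886 and Ankrd23 3506, 3351 and 4523. The M band gene Myom1 had 29147, 41242 and 37341 normalized counts and Myom2, the M band protein of mature muscle, 2486, 5934 and 5327, with C1 the lowest library for both. Tcap (telethonin), a short gene, had 112, 205 and 219.5, and Ankrd2 and Myoz1, known from skeletal muscle, had 0, 0 and 0 and 1.18, 0.897 and 0.

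Junction and costamere genes took 1.89, 2.08 and 2.17% of the counts, and 26 of 27 had a mean of at least 10. Dmd (3444 ± 171) and Sptbn1 (3670.3 ± 942) had the largest levels per kilobase, followed by Ctnna1 (α-catenin, 743), Sgca (α-sarcoglycan, 623), Dsp (desmoplakin, 586) and Pkp2 (plakophilin 2, 557). Gja1, the connexin 43 of ventricular gap junctions, had 1176, 1006 and 1458 normalized counts, whereas Gja5, the connexin 40 of atrium and conduction system, had 1.18, 0.897 and 0.

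To see which form of a protein the nuclei transcribed, the level per kilobase of exon was compared within 31 pairs of genes, most of which set a form of the mature ventricle against a developmental, atrial or ubiquitous relative. In 24 pairs the gene of the mature form or the first of the pair held more than 50% of the sum in every library, and in 13 it held more than 90%. In 4 pairs it held less than 50% in every library and 3 pairs lay on both sides of 50%. These shares are given as levels, with no reference age in these data.

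Myh6 held 86.8, 90.9 and 88.6% of the sum of Myh6 and Myh7 (88.8 ± 2.03%, n = 3). Myh7, the β-myosin heavy chain that prevails in the fetal mouse ventricle, still had 52291, 49872 and 44558 normalized counts and was among the 20 most abundant genes. Tnni3 held 100, 99.99 and 99.9% of the sum with Tnni1, the slow skeletal troponin I of the fetal heart, which had 0, 1.79 and 15.2 normalized counts. Tnni1 was thus near the detection limit, while the myosin pair still showed both forms. The shares were 95.3, 96.7 and 97.5% for Actc1 against Acta1 (skeletal actin), 94.9, 95.4 and 96.3% for Tpm1 against Tpm2 and 99.5, 99.5 and 99.5% for Tnnt2 against Tnnt1.

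The ventricular light chains stood against atrial forms that were nearly absent. Myl2 held 98.5, 100 and 99.97% against Myl7, which had 36.6, 0 and 0.95 normalized counts, and Myl3 held 98.7, 99.8 and 99.3% against Myl4, which had 70.9, 10.8 and 41.8. C1 had the highest count of both atrial forms. Among calcium genes, Atp2a2 (the cardiac calcium pump SERCA2) held 99.9, 100 and 99.8% against Atp2a1, and Pln (phospholamban, its inhibitor) was at 2232, 1778 and 2719.9 normalized counts against 0, 0 and 0.95 for Sln (sarcolipin, the atrial counterpart).

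Metabolic pairs were more divided. Slc2a4 (the insulin-dependent glucose transporter GLUT4) held 96.2, 98.04 and 99.4% against Slc2a1 (GLUT1), Ckm (muscle creatine kinase) 93.1, 95.6 and 97.4% against Ckb, Eno3 (muscle enolase) 96.6, 97.03 and 90.4% against Eno1, and Pgam2 94.5, 97.4 and 94.95% against Pgam1. Hk2 held 80.2, 81.7 and 80.3% against Hk1, Ldhb 79.3, 76.3 and 70.6% against Ldha and Slc25a4 87.8, 90.9 and 95.04% against Slc25a5, the adenine nucleotide carriers. Of the cytochrome oxidase subunits, Cox6a2 held 84.4, 86.2 and 83.5% against Cox6a1 and Cox7a1 79.4, 82.2 and 72.1% against Cox7a2, while Cox8b and Cox8a were near balance (40.5, 59.5 and 52.3%).

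Cpt1b, the muscle form of the enzyme that admits fatty acids to mitochondria, held 38.3, 44.2 and 40.8% of the sum with Cpt1a, the liver form that the fetal heart also uses. Cpt1a was the higher gene in each library, with 687, 755 and 973 normalized counts against 188, 264 and 297 for Cpt1b. Kcnj12 held 34.3, 41.2 and 27.7% against Kcnj2, both genes of the inward rectifier. Mbnl1 held 41.6, 30.9 and 33.7% against Mbnl2, both splicing regulators, and Esrrg 38.5, 48.6 and 48.5% against Esrra, both oestrogen-related receptors of energy metabolism. The order in these pairs depended on the division by length. In normalized counts Esrrg (378, 528 and 499) was above Esrra (427, 395 and 374) in C2 and C3. Mbnl1 (1947, 1807 and 1891) was above Mbnl2 (1753, 2588 and 2381) in C1. Pygm, the muscle glycogen phosphorylase, held 76.6, 59.5 and 55.7% against Pygb, with C1 above both other libraries.

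Of the other pairs, Rpl3l, the striated muscle form of a ribosomal protein, held 89.98, 92.1 and 80.3% against Rpl3. Cacna1c held 99.8, 99.8 and 99.8% against the T-type channel Cacna1h, Kcnd2 69.6, 72.7 and 79.9% against Kcnd3, and Lmna (lamin A/C) 82.1, 77.6 and 78.9% against Lmnb1. Another T-type channel gene, Cacna1g, was not part of this pair and had 273 counts per kilobase, against 2.71 for Cacna1h. The pairs Hcn2 and Hcn4 (62.6, 94.7 and 89.1%), Ccnd2 and Ccnd1 (61.8, 50.8 and 42.9%) and Cdkn1b and Cdkn1a (46.6, 84.3 and 43.6%) rest on low counts and differed widely between libraries. For Hcn2 and Hcn4 this came with the Hcn4 count of C1, and for Cdkn1b and Cdkn1a with the low Cdkn1a count of C2 (49.6, 13.5 and 97.9).

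**Figure D4:**
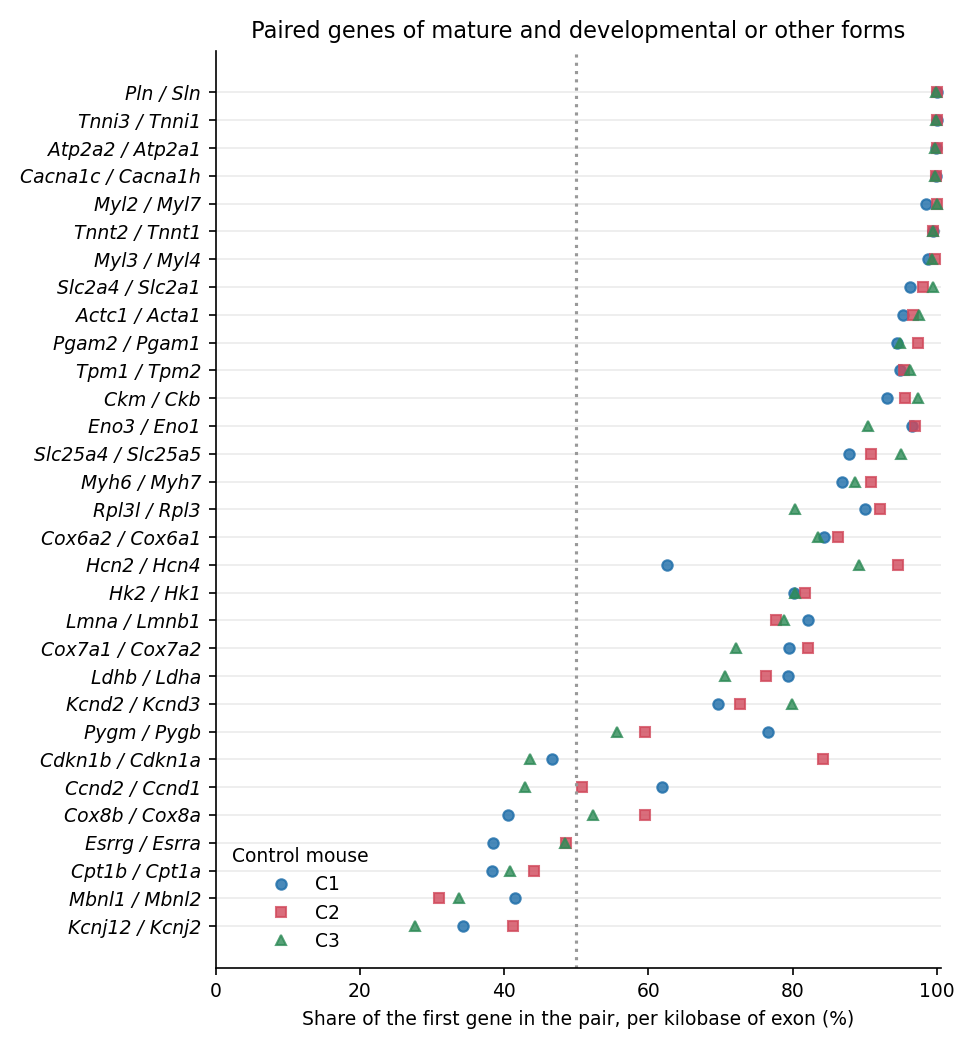
Share of the first gene in each of 31 pairs (%), from normalized counts per kilobase of exon, with 1 symbol per control mouse and a dotted line at 50%. The upper pairs, from Pln and Sln to Myl3 and Myl4, lie at 98.5% or above in all 3 mice, Myh6 and Myh7 lie between 86.8 and 90.9%, and Cpt1b and Cpt1a lie between 38.3 and 44.2%.

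The locus of both myosin heavy chain genes on chromosome 14 also holds noncoding genes, and its sequences are shown because the counts of the small genes did not follow those of their hosts. Myh6 (ENSMUSG00000040752.10) spans chromosome 14 from 54941921 to 54966927 and Myh7 (ENSMUSG00000053093.10) spans chromosome 14 from 54970684 to 54994626 in mm10, both on the minus strand. Each holds a miRNA hairpin in an intron, with 0 bases of the hairpin in annotated exons of the host. The hairpin of Mir208a lies in Myh6 and that of Mir208b in Myh7. They are printed from RefSeq (GRCm38.p6), 5′ to 3′, with the mature 3′ arm in capitals.
Mir208a (chr14:54949060-54949142, minus strand): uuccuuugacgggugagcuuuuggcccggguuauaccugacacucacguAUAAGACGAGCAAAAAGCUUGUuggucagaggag
Mir208b (chr14:54975700-54975776, minus strand): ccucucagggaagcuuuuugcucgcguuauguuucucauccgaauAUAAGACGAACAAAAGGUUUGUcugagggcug

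The mature miRNAs of these loci and of Mir499, which lies in an intron of Myh7b on chromosome 2, are shown with the seed (bases 2 to 8) in capitals because miR-208a and miR-208b share it and miR-499 differs in it. The seed of the first pair is UAAGACG and that of miR-499-5p is UAAGACU.
mmu-miR-208a-3p: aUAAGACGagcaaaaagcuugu
mmu-miR-208b-3p: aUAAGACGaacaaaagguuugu
mmu-miR-499-5p: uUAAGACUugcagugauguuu

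The hairpin of Mir208b had 1505, 913 and 1041 normalized counts and that of Mir208a 155, 52.04 and 150.2. Mir208b was thus 9.73, 17.6 and 6.93 times Mir208a, although Myh6 was 5.15, 7.78 and 6.06 times Myh7 in normalized counts. Mir499 had 1.18, 0 and 3.80, while its host Myh7b had 28952, 37767 and 26027. These libraries were not made for small RNA. A count on a hairpin is one of reads within that stretch of nuclear RNA and gives no level of the mature miRNA. Of 1894 miRNA genes in the table, 31 had a mean of at least 10.

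Along Myh7, the antisense gene D830015G02Rik (Mhrt, chromosome 14 from 54968678 to 54974349, plus strand) overlaps the 3′ part of Myh7. The predicted gene Gm17428, of 93 bases on the plus strand within Myh7, had 2668, 2714 and 2641 normalized counts. Since the use of strand is not given, the reads of Myh7, Mhrt and Gm17428 cannot be assigned to a strand here, and Myh7 is uncertain to that extent.

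The windows from 250 bases before to 50 bases after the RefSeq start of Myh6 and Myh7 are shown to set beside each other the promoters of the pair with the largest counts. For Myh7, RefSeq gives 2 starts and the downstream one was used. Capitals mark matches on either strand to the TATA box motif TATAAA, the muscle motif CATTCC that TEAD factors bind or the GATA factor motif GATAA.
Myh6 (chr14:54966558-54966857, minus strand): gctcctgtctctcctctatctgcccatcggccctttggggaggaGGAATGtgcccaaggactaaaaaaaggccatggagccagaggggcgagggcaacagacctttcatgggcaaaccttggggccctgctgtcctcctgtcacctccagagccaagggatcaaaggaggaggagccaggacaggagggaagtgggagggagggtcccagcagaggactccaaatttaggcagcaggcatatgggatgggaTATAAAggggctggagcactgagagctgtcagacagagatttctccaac
Myh7 (chr14:54994500-54994799, minus strand): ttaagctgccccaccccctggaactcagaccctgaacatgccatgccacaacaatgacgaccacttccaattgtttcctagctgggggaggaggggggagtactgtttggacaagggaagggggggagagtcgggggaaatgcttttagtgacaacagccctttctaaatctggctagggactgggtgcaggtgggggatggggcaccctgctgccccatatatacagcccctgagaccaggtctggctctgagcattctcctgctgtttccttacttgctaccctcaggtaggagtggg

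The Myh6 window held TATAAA from base 252, which is position 2 after the start used, and CATTCC on the opposite strand from base 45. The Myh7 window held no exact match to these motifs. Only exact matches were marked, so that the tatata stretch before the start in the Myh7 window is not in capitals. Whether either window holds a working TATA box was not tested. Of 27025 promoters of the same length, 14.2% held TATAAA, 14.6% CATTCC and 25.8% GATAA on either strand. Among the 8507 promoters matched to protein-coding genes with a mean of at least 10 these shares were 6.61, 12.0 and 15.4%. Among the 83 matched promoters of the 100 protein-coding genes with the largest level per kilobase they were 9.64, 22.9 and 30.1%. These shares are a description of letters in a window.

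Genes of calcium handling took 1.75, 1.48 and 1.67% of the counts, and 30 of 33 had a mean of at least 10. Ryr2 (3623 ± 265) and Atp2a2 (3299 ± 377) had the largest levels per kilobase, followed by Casq2 (calsequestrin, the calcium store, 848), Pln (813), Srl (sarcalumenin, 770.4) and Hrc (658). Slc8a1, the sodium-calcium exchanger, had 8555, 8504 and 8221 normalized counts and was nearly equal in the 3 libraries. Ryr3 had 36.6, 9.87 and 29.5 and Ryr1, the release channel of skeletal muscle, 1.18, 7.18 and 0.

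Of 26 genes of calcium and sodium channels 17 had a mean of at least 10, and the list took 0.49, 0.445 and 0.513%. Cacna1c, the pore of the L-type channel, had 32911, 30147 and 32314 normalized counts, a narrow range. Cacna1g, a T-type channel of the embryonic heart and of pacemaker cells, had 2303, 3021 and 2967 normalized counts, while its relative Cacna1h had 24.8, 25.1 and 29.5. Per kilobase Cacna1g stood at 273 ± 39.4, against 1500.2 ± 68.6 for Cacna1c and 2.71 ± 0.266 for Cacna1h. The subunit gene Cacnb2 had 2110.3, 3958 and 4314 normalized counts, with C1 the lowest library. The neuronal sodium channel genes Scn1a and Scn8a were at 0 in all 3 libraries.

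Potassium, pacemaker and chloride channel genes took 0.216, 0.187 and 0.201%, and 25 of 32 had a mean of at least 10. Popdc2, a membrane protein that binds cyclic AMP, had 1073 ± 128 counts per kilobase and Abcc9, the sulphonylurea receptor 2 of the ATP-sensitive channel, 561 ± 114. They were followed by Kcnip2 (402), a subunit of the transient outward channel, Kcnh2 (359), the rapid delayed rectifier, Kcnk3 (299.6) and Abcc8 (256). Kcnk3 had 1933, 958 and 682 normalized counts and was highest in C1. Kcnj2, the main inward rectifier gene of the ventricle, had 385, 414 and 383, and Kcna5, the atrial channel gene, 0, 0 and 1.90.

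Metabolic genes took far smaller shares than sarcomere genes. All 35 genes of fatty acid uptake and oxidation had a mean of at least 10, and the list took 0.34, 0.301 and 0.319%. The highest level per kilobase was that of Acacb, which makes the malonyl-CoA that restrains fatty acid import (1049 ± 106). Pdk4, the kinase that turns off pyruvate dehydrogenase, followed with 740.4 ± 259 counts per kilobase, and then Ucp3 (527), Slc27a1 (379), Cd36 (324) and Acadl (303). Pdk4 had 1796, 3584 and 2419 normalized counts and was highest in C2. Fabp3, the fatty acid carrier of heart cytosol, had 167, 189 and 188, whereas Fabp4 and Fabp5 had 16.5, 17.9 and 20.9 and 7.09, 18.8 and 5.70.

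Glucose genes took 0.345, 0.282 and 0.276%, and 36 of 37 had a mean of at least 10. Eno3 led with 3577, 2692 and 1412 normalized counts, with C1 at 2.53 times C3, followed per kilobase by Pygm (766), Hk2 (483), Pygb (433), Pfkm (419) and Pdk2 (330.3). Gapdh, often taken as a constant gene, had only 214, 109 and 102 normalized counts. The citric acid cycle and creatine kinase list took 0.3, 0.297 and 0.296%, the most even of the metabolic lists between libraries. In it Mb (myoglobin) had 1256 ± 109 counts per kilobase, Ogdh 1134 ± 216, Slc25a4 748 ± 103 and Ckm 747 ± 141, and Bdh1, an enzyme of ketone use, had 0, 1.79 and 0 normalized counts.

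Nuclear-encoded oxidative phosphorylation genes took 0.171, 0.184 and 0.188%, with 60 of 63 at a mean of at least 10 and 4 at 1000 or more. Atp5a1 (779.9 ± 232) and Atp5b (559 ± 126), the α and β subunits of ATP synthase, and Cyc1 (606 ± 165) had the largest levels per kilobase. Cytosolic ribosomal protein genes took 0.0229, 0.0189 and 0.0196%, with a median of 13.6 counts per kilobase, just below the medians of the endothelial (13.9) and fibroblast (17.2) lists. The highest of them was Rpl3l, the striated muscle form, with 763, 612 and 400.1 normalized counts.

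RNA of the mitochondrial chromosome was nearly all ribosomal. mt-Rnr1 and mt-Rnr2, the RNAs of the small and large mitochondrial ribosome subunit, had 43808, 61504 and 56189 and 48071, 51787 and 53458 normalized counts. The mitochondrial protein genes were much lower, led by cytochrome b (CYTB) with 112, 253 and 86.5 and ND1 with 126, 61.01 and 119.7. COX1 had 56.7, 78.1 and 86.5, and COX2, COX3, ATP6, ATP8, ND3 and ND4L were listed at 0 in all 3 libraries. No source states how reads that map to both the mitochondrial chromosome and the nuclear genome were counted, so that these zeros are values of the table and not of the tissue. Lars2, a mitochondrial tRNA synthetase gene, had 13742, 17474 and 21869 normalized counts.

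Among long noncoding RNAs, Malat1 and Neat1, which lie beside each other on chromosome 19, differed 30.2-fold in normalized count and stood at 136801 ± 5552 and 1525 ± 176 counts per kilobase. Mhrt, a heart-specific RNA in the mouse, had 4529 ± 632 counts per kilobase. Imprinted antisense RNAs were present, with Kcnq1ot1 at 8217, 4609.7 and 10254 and Airn at 3423, 2695 and 3582 normalized counts. Carmn, a regulator of cardiac differentiation, had 562, 310.4 and 605, H19 75.6, 18.8 and 45.6 and Meg3 358, 287 and 276. Rn7sk, which holds back the elongation of RNA polymerase II, had 577, 671 and 938. Apart from Malat1, Gm42418 and Neat1, the long noncoding RNAs with the largest mean were Xist, Kcnq1ot1, D830015G02Rik, Gm26917 (5001, 3385 and 3034), LOC102639045 and Airn.

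Of 51 cardiac transcription factors and coactivators 46 had a mean of at least 10. The coactivator Ppargc1a (PGC-1α), which drives mitochondrial genes, had 11776, 47574 and 20345 normalized counts, with C2 at 4.04 times C1, and took rank 26 of all genes. Its relative Ppargc1b had 3813, 5141 and 4433. Myocd (myocardin, a partner of SRF) had 6207, 11210.3 and 9634 and was lowest in C1. Mef2d (642), Irx4 (335), a ventricular homeobox factor, and Nr3c2 (332), the mineralocorticoid receptor, followed per kilobase. Nkx2-5 had 80.3, 84.3 and 76.03 normalized counts and Gata4 1017, 755 and 880.0, whereas Isl1 and Hand1, factors of cardiac progenitors, had 1.18, 0 and 0 and 0, 0 and 0.

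Splicing regulators were led by Rbm20, which controls the splicing of titin, with 27367, 33641 and 26018 normalized counts and 4272 ± 599 counts per kilobase. Rbm38 (670.0) and Rbm24 (659) followed per kilobase, and Esrp1, a regulator of epithelial splicing, had 0, 0 and 3.80 normalized counts. At the nuclear envelope, Akap6 (mAKAP, an anchor of protein kinase A around myocyte nuclei) had 16186, 20925 and 19376 and Pcnt (pericentrin) 2512, 3592 and 2859.6. Akap9, which also binds the centrosome, had 8142, 10443 and 9729. Lmna had 479.7, 436 and 433 normalized counts. In adrenergic signalling, Adrb1, the main β-receptor of the myocyte, had 347, 333 and 391 normalized counts and Adrb3 0, 0 and 0. Adcy6, a cardiac adenylyl cyclase, had 4342, 4856 and 4136, and Akap13 6275, 11043 and 9419.

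Cell cycle genes were expressed at low levels. Of 50 genes of S phase, G2 and M phases 38 had a mean of at least 10, 5 reached 100 and 0 reached 1000, and the list took 0.0187, 0.0246 and 0.0209% of the counts. Its median was 4.14 counts per kilobase, below the medians of the endothelial and fibroblast lists. In 24 of these genes the count was at least 10 in every library. Cenpa, the histone of centromeres, had 353, 348 and 249.9 normalized counts and Mki67, the gene of Ki-67, 150.1, 613 and 293. C2 had the highest count of Mki67, of Foxm1 (36.6, 169.6 and 78.9), a factor that activates mitotic genes, and of the mitotic kinase gene Plk1 (11.8, 53.8 and 22.8). Of the 38 genes, 9 (23.7%) were highest in C1, 18 (47.4%) in C2 and 11 (28.9%) in C3. Over all 9916 genes within the same range of means (10.2 to 352) these shares were 35.9% for C1, 32.4% for C2 and 31.7% for C3, and the difference was not tested. Top2a had 43.7, 92.4 and 86.5, Ccna2 12.998, 48.4 and 25.7, Cdk1 16.5, 19.7 and 0.95 and Ccnb1, the cyclin of mitosis, 0, 1.79 and 0. Of the 18 endothelial markers with a mean of at least 10, 2 were highest in C1, 8 in C2 and 8 in C3. They were thus as often highest in C3 as in C2, and the fibroblast list took its smallest share in C2. Shares over all genes within the range of the endothelial markers were not taken. No link between these markers and the cycle genes was tested.

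Among regulators of the cycle, Cdk4 had 202, 205 and 216 normalized counts, Ccnd1 60.3, 13.5 and 51.3, Ccnd2 195, 27.8 and 76.98 and Ccnd3 72.1, 26.02 and 47.5. The cyclin D counts were lowest in C2. The pocket protein genes Rb1 and Rbl2 had 206, 229.7 and 249 and 147, 104 and 115. Meis1, a factor known to hold back the postnatal cycle of mouse cardiomyocytes, had 689, 676 and 783, and Tbx20 1612, 1177 and 1566. The inhibitor genes Cdkn2a and Cdkn2b were at 0 in all 3 libraries, and Cdkn1c had 8.27, 5.38 and 0.

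Of 31 fetal and stress genes 25 had a mean of at least 10. Myh7 took most of the share of this list. Nppb, the gene of brain natriuretic peptide, had 694, 621 and 624 normalized counts and was higher than Nppa (8.27, 109 and 28.5) in every library. Ankrd1, a stretch-responsive gene, had 1929.6, 4154 and 3603, and Xirp2 9419, 12176 and 14573, both lowest in C1. Dlk1, Hmga2 and Mstn were at 0, and Igf2, a fetal growth factor, had 128, 70.9 and 103. Immediate early genes, which respond within minutes to handling of tissue, took 0.0416, 0.0589 and 0.0573%. Dusp1 led with 1572, 2859 and 1661 normalized counts. Per kilobase it was followed by Nr4a1 (183, 607 and 408), Sik1 (422, 624 and 695) and Jun (307, 217 and 283). Then came Zfp36 (138, 301 and 365) and Fosl2 (715, 484 and 952). Further down, Fos had 0, 27.8 and 9.50, Egr1 88.6, 241 and 95.04 and Nr4a3 102, 347 and 460.0. The genes did not all go the same way. Jun and Ier3 (105, 52.9 and 66.5) were highest in C1, and Fosl2 was lowest in C2. Over the genes of this list with a mean of at least 30, the median deviation from the mean of the 3 libraries in log2 values was -0.43 in C1, 0.28 in C2 and 0.30 in C3. Over all 6168 genes with a mean of at least 100, the median log2 difference was -0.10 for C1 minus C2 and -0.01 for C1 minus C3. These are differences between pairs of libraries at another minimum level. They therefore cannot be set directly against the deviations of the list, and nothing was tested.

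The spread between libraries depended on level. For genes with a mean of 10 to 30 the median SD was 62.6% of the mean, for 30 to 100 it was 41.3%, for 100 to 300 27.8%, for 300 to 1000 19.4% and for 1000 to 10000 16.0%. The 77 genes at 10000 or more had a median of 14.6%. Counting error alone would give 24.1% in the lowest and 0.721% in the highest of these classes. The variance was larger than that of counting for 90.6% of genes in the lowest class, 95.8% at 300 to 1000 and 100% of the 77 most abundant genes. Over 6168 genes with a mean of at least 100 the median SD of log2 values was 0.32, and edgeR's common dispersion over 12747 genes gave a biological coefficient of variation of 0.476. This coefficient was 0.291 with a minimum mean of 100. Each mouse gave a single library of amplified RNA. Differences between mice and those of amplification and library preparation therefore cannot be told apart, despite the name of the coefficient.

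**Figure D5:**
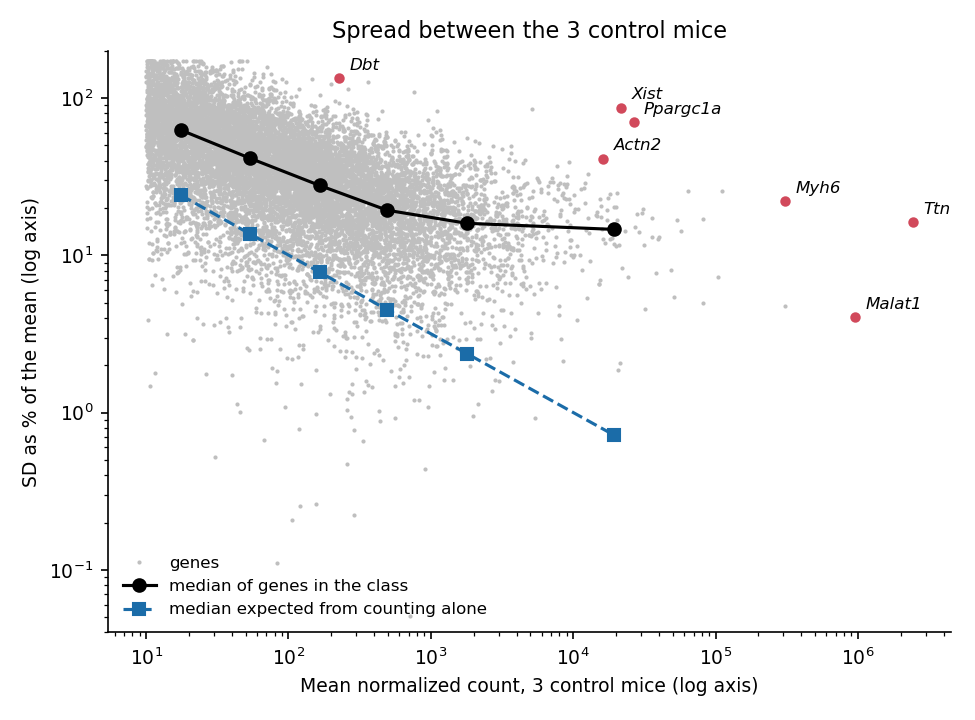
SD as a percentage of the mean against the mean normalized count of each gene with a mean of at least 10 (both log axes). Black circles are medians in 6 classes of level, from 62.6 to 14.6%, and blue squares the medians that counting error alone would give, from 24.1 to 0.721%. Named genes in red include Xist (86.7%), Ppargc1a (70.4%) and Actn2 (41.1%), which lie above the median of their level, and Malat1 (4.06%) below it.

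The 3 libraries were similarly close to each other across genes by correlation, with C2 somewhat the farthest by the counts of genes below. Pearson's r of log2 values over the 6168 genes was 0.91 for C1 and C2, 0.93 for C1 and C3 and 0.93 for C2 and C3, across genes, which are not independent. The library farthest from the median of the 3 was C2 for 2335 genes, C1 for 2120 and C3 for 1713. Values of C1 and C2 differed by more than 1 log2 unit for 780 genes, of C2 and C3 for 588 and of C1 and C3 for 532. The median log2 difference was -0.10 for C1 minus C2, -0.01 for C1 minus C3 and 0.08 for C2 minus C3.

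Xist had the largest SD of log2 values of all genes with a mean of at least 100, with 787, 27009.6 and 37215 normalized counts. This long noncoding RNA coats the inactive X chromosome of female cells. The count of C1 was 2.91% of that of C2 and 2.11% of that of C3. The X-linked genes Kdm5c (1043, 1743 and 1757), Kdm6a (539, 1036 and 1164) and Ddx3x (226, 467 and 392), which are known to escape X inactivation, were also lowest in C1. Other X-linked genes of the list were not. Eif2s3x had 5.91, 8.07 and 4.75 and was lowest in C3, but counts of a few reads cannot order the libraries. Tsix had 70.9, 19.7 and 122.6 and was lowest in C2. It overlaps Xist on the chromosome, and since the use of strand is not given, its reads cannot be told from those of Xist. The Y-linked genes Kdm5d (4.73, 0 and 2.85), Uty (2.36, 1.79 and 1.90), Eif2s3y (1.18, 0 and 0.95) and Ddx3y (1.18, 0 and 0) were near 0 in all 3 libraries. The study describes the control mice as female, and the cause of the low Xist count of C1 was not tested. All values above include C1, and the main summary values without it are in the closing section.

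The other genes with the largest SD were much less abundant, and each was carried by 1 or 2 libraries. Dbt, a subunit of the branched-chain ketoacid dehydrogenase, had 55.5, 46.7 and 577 normalized counts and Chsy1, a chondroitin synthase, 18.9, 52.9 and 369, both highest in C3. Spsb4 had 479.7, 13.5 and 107 and was highest in C1. Spred2 (75.6, 886 and 119.7), Cryz (142, 601 and 41.8), 1810043G02Rik (292, 520.4 and 38.01) and Hras (48.4, 276 and 32.3) were highest in C2. Clybl (30.7, 126 and 297) and 4930452B06Rik (29.5, 144 and 271) were highest in C3.

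At the other end, Ski had 713, 712 and 712 normalized counts and Trim24 917, 911 and 909, both transcriptional cofactors. Rpn1, Klf3, Tomm70a, Rer1, Ntn1, Cog3, Aebp2 and Psmg2 completed the 10 genes with the smallest SD, which was 0.051 to 0.791% of the mean. Counting error alone would give 3.33 to 9.74% for these genes. Their agreement was thus closer than counting allows on average and is the lower end of a distribution over 6168 genes.

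Among the 100 most abundant genes the median SD was 16.0% of the mean, and 69 had an SD under 20%. The widest after Xist were Ppargc1a (11776, 47574 and 20345; 70.4%), Actn2 (8649, 18704 and 21251; 41.1%), Mypn (5402, 12682 and 9886; 39.4%) and Ablim1 (17496, 11136 and 9557; 33.0%). Ppargc1a was highest in C2, Actn2 was lowest in C1 and Ablim1 was highest in C1. Mypn, Ablim1 and the next genes of this kind were named after their values were seen.

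The protein-coding genes with the largest counts were long genes. The 100 protein-coding genes with the largest count had a median exon length of 11899.5 bases and a median span of 105526 bases on the genome, against 4889 and 26929 bases for all 11204 protein-coding genes with a mean of at least 10. Genes longer than 100000 bases took 45.4, 48.0 and 45.4% of the counts, and 28.9 to 30.1% of the counts left without Ttn. When the 100 genes were taken by level per kilobase instead, the medians were 6457 and 52868.5 bases. Across the 11204 genes, log2 count and log2 exon length had a Pearson's r of 0.45, and log2 count and log2 span an r of 0.33, given as a description across genes of the same libraries.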

How the data were processed

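Nuclear RNA of PCM-1-positive left ventricular nuclei was amplified with the Ovation RNA-seq V2 kit and sequenced as 50-base single reads. The authors mapped reads to mm10 with STAR and deposited normalized counts, a signal in which the reads of each gene are scaled by 1 factor per library. Their methods name DESeq2. No source gives versions, how these factors were set, the program that counted reads, or whether strand was used. In the control libraries 100% of values above 0 equalled a whole number of reads times the worth of 1 read, within 0.001 reads, so reads could be recovered. As the series was described for its controls alone, no comparison between groups and no test was made.

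Exon lengths (union of exons), positions and classes came from GENCODE M21, where 40254 of 41128 genes were found, and sequences from RefSeq (GRCm38.p6). Shares are of all normalized counts of a library. Levels per kilobase compare genes. log2 values used a pseudocount of 1. The 31 lists (788 genes matched) and 31 pairs were chosen with earlier results of these data known. Named genes were the 20 with the largest mean, the 20 with the largest level per kilobase (mean of at least 10, exons of at least 500 bases), the 10 with the largest and smallest SD of log2 values (mean of at least 100), all pairs, up to 6 members and the defining markers of each list, and sex-linked genes. Any other gene was named after its values were seen, and a few genes that meet the rule are not reported here. Dispersion was estimated with edgeR 4.0.16 in R 4.3.3 and checked on simulated data. Alternatives left out each library in turn or used other scalings, minimum levels, totals or lengths.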

Additional observations from a re-analysis of the deposited data

How the results depend on the processing

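The Ttn count sets most shares. Without Ttn in the total, the 10 most abundant genes took 27.1%, 136 genes (mean of the 3 libraries, 136.333) held 50% of the counts, sarcomere genes took 11.1%, mitochondrial RNA 1.34% and noncoding genes 18.8%. Without mitochondrial genes in the total the share of mitochondrial RNA is 0 by construction, and no other share moved beyond its SD. The Myh6 share was 86.1% with no division by length and 86.3% with the longest transcript as length, and the marker ratio was 162 with no division by length and 146 as a ratio of sums. With at least 10 counts in each library, 24 cell cycle genes remained. The median SD of log2 values was 0.48 at a minimum mean of 10 and 0.23 at 1000, and the coefficient of variation was 0.582 with no minimum and 0.291 at 100.

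Leaving out each mouse in turn gave 43.1 to 44.3% for the 10 most abundant genes, 26.5 to 32 genes for 50% of the counts, 12571 to 12731 genes at a mean of at least 10, 30.8 to 32.9% for sarcomere genes, 0.977 to 1.06% for mitochondrial RNA and 13.8 to 15.3% for noncoding genes. It gave 87.7 to 89.7% for Myh6, 99.95 to 100% for Tnni3, a marker ratio of 193 to 208, 35 cell cycle genes, a median SD of 0.24 to 0.29 and a coefficient of 0.43 to 0.511. Without C1 these were 43.8%, 28.5, 12571, 32.6%, 1.06%, 13.9%, 89.7%, 99.95%, 208, 35, 0.25 and 0.483. A median SD of 2 libraries is lower by construction. Another scaling cannot change shares or ratios within a library. With TMM and with scaling by library total alone, 12745 and 12744 genes had a mean of at least 10, the median SD was 0.32 with both and the coefficient of variation was 0.476 and 0.484.

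No paired analysis was possible because the control libraries were compared with no other group. With 3 libraries an SD is itself imprecise, and genes of a few reads cannot be told from genes at 0. The effect of strand and of reads that map more than once on Gm42418, Mir6236, the mitochondrial genes and the antisense genes was not tested.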
